A study of Mus musculus with 15 samples.

Results

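Genes of cholesterol and fatty acid synthesis were followed in mouse brain across 3 groups. They comprise 42 genes of the 30386 in the count table, taken by symbol: 16 enzymes of the sterol branch, 3 regulators and 23 genes of the fatty acid branch. The fatty acid branch covers synthesis (4 genes), desaturation (6), elongation (6) and the binding and activation of fatty acids (7). Every symbol was found once. Idi1, the isomerase of the mevalonate pathway, with 33 reads in all 15 libraries together, and Acacb, the acetyl-CoA carboxylase of mitochondria, with 84, had too few reads to be tested, which left 40 genes.

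The groups were wild-type mice given phosphate-buffered saline (WT_PBS), Tbx1+/- mice given saline (Het_PBS) and Tbx1+/- mice given vitamin B12 (Het_B12), with 5 libraries each. Tbx1 encodes a T-box transcription factor and is among the genes lost in DiGeorge syndrome. The vitamin was given at 20 mg/kg. Injections were intraperitoneal in all groups, 2 per week over 4 weeks, and began when the mice were 4 weeks old. The vitamin was compared with saline within heterozygotes, and its effect in wild types was not analysed here. The labels name neither the strain nor the part of Tbx1 that the mutant allele lacks. The tissue is given as a hemisphere in one place and as the whole brain in another, and more than 1 way of isolating RNA is named, without saying which library had which. Within a group each library carries its own number in the labels, which do not say whether these numbers stand for mice. If libraries shared mice, part of the spread behind the p-values would be technical. The same number stands on both Het_PBS 5 and Het_B12 1.

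Cells of the brain make nearly all of their own cholesterol, since lipoproteins of the blood do not cross the blood-brain barrier. Acetyl-CoA is built into mevalonate, squalene, lanosterol and then cholesterol, and the same acetyl-CoA is carboxylated and extended by fatty acid synthase to palmitate, which is later elongated and desaturated. SREBP2 (gene Srebf2) and SREBP1 (Srebf1) are membrane-bound transcription factors released when sterols are low, and act mainly on the sterol and the fatty acid branch, respectively. INSIG1 holds them in the endoplasmic reticulum when sterols are plentiful. In the adult brain astrocytes supply much of the cholesterol and fatty acids used by neurons, and oligodendrocytes make those of myelin.

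Promoter sequence is shown for Hmgcs1, the sterol enzyme gene with the highest level, and for Acsl3 and Elovl6, which differed between groups. The stretches end before the gene start of the GENCODE annotation, and 35 of the 42 genes had an entry in the RefSeq table (build GRCm38.p6). Each is written 5′ to 3′ on the gene's own strand. Capitals mark matches on either strand to sterol regulatory element 1 (SRE-1) of the LDL receptor gene, to the shorter form TCACNCCAC that overlaps it, to ATTGG (the reverse of the CCAAT box bound by NF-Y), to the GC box GGGCGG bound by SP1 and to the E-box CACGTG. The stretches lie at chr13:119690101-119690350 (plus strand, Hmgcs1), chr1:78657575-78657824 (plus, Acsl3) and chr3:129532136-129532354 (plus, Elovl6).
Hmgcs1: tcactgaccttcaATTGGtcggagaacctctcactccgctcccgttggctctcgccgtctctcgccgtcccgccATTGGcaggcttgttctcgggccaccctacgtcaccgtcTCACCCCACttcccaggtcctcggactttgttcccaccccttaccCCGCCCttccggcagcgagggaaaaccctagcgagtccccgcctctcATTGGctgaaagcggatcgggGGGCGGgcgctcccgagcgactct
Acsl3: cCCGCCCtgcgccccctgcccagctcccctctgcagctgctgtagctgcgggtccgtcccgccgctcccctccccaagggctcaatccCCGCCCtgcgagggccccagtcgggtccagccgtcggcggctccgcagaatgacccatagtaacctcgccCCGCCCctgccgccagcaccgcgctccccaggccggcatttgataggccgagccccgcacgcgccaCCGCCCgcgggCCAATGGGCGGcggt
Elovl6: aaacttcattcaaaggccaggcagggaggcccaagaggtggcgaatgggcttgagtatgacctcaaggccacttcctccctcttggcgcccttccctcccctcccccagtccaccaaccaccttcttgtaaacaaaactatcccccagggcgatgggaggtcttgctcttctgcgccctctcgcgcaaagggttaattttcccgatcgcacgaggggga

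Over the 250 bases before the RefSeq start, ATTGG on either strand was found in 11 of 13 sterol genes with an entry and 9 of 19 genes of the fatty acid branch, against 33.9% of the 32851 windows in the table. The GC box was found in 12 of the 13, 9 of the 19 and 32.7% of all windows. The form TCACNCCAC was found in Hmgcs1 alone of the 35 genes and in 1.05% of all windows. The full SRE-1 was found in 0 of the 35 and 0.073% of windows. The E-box was found in 2 of the 13, 1 of the 19 and 6.02% of windows. Among the 19, the windows of Acaca and Acacb lay inside the genes, 65766 and 18983 bases from the GENCODE start. All windows can include more than 1 per gene, while each of the 35 genes gave the 1 nearest its GENCODE start. A match is a description of the letters and not a site of binding. Acsl3 carried 5 GC boxes and 1 ATTGG, and Elovl6 carried none of the 5 motifs.

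Libraries held 1683258 to 2746122 counts, so that 3 reads, used as the floor of detection, stood for a CPM (a library's count scaled to a common total) of 1.09 to 1.78. Tbx1 had 3 reads in WT_PBS, 3 in Het_PBS and 1 in Het_B12, too few to check the genotype labels. The 13 neuron markers summed to 6784 to 8341 CPM per library. On the first principal component (18.0% of the variance) the Het_B12 libraries lay at 19.1 to 32.8, with WT_PBS 3 at 17.8, and the remaining 9 saline libraries ran from -22.4 to -10.2. Gm42418, which collects ribosomal RNA reads, took 10.6% to 14.9% of counts in WT_PBS, 6.47% to 10.3% in Het_PBS and 3.31% to 6.28% in Het_B12. CPM below are scaled by TMM factors. The 3′ protocol gives about 1 read position per transcript whatever its length, so that levels of different genes are compared as CPM.

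By level in WT_PBS the genes spanned a wide range. Dbi, which encodes the acyl-CoA binding protein, was the most abundant at 857 ± 132 CPM, followed by the acyl-CoA synthetase gene Acsl3 (446 ± 47.8), the stearoyl-CoA desaturase gene Scd2 (385 ± 79.0) and Hmgcs1, the cytosolic HMG-CoA synthase gene (379 ± 67.9; SD, n = 5). Acsl3, Scd2 and Hmgcs1 did not differ beyond their spread. Fasn, fatty acid synthase, stood at 174 ± 32.2 CPM, and Msmo1, the oxidase that removes sterol methyl groups, at 115 ± 11.4. At the lower end were the lanosterol synthase gene Lss (7.67 ± 5.14), the desaturase gene Fads2 (5.10 ± 1.99) and Srebf1 (2.24 ± 0.813).

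Loss of 1 Tbx1 copy was examined by comparing Het_PBS with WT_PBS. None of the 40 genes differed by edgeR's quasi-likelihood test with Benjamini-Hochberg adjustment over the 11718 genes tested, where the share called was 0%. At an unadjusted p under 0.05 there was 1 gene of the 40 (879 of all genes), and DESeq2 and limma-voom called 0 of the 40. That gene was Elovl5, an elongase of polyunsaturated fatty acids, at 49.0 ± 11.2 CPM in WT_PBS and 64.5 ± 11.6 in Het_PBS (log2 fold change 0.40 ± 0.16 SE, adjusted p = 0.577). The median log2 fold change of the 40 was -0.020, beside -0.0070 for all genes tested, with 19 genes above 0 and 21 below.

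Within the branches no value for genotype passed. The 15 sterol genes ran from -0.32 (Mvd, mevalonate diphosphate decarboxylase, adjusted p = 0.725) to 0.15 (Dhcr7, the last reductase of one route to cholesterol, 0.946). Fads2, the first desaturase of the polyunsaturated pathway, had the lowest value of the fatty acid branch, -0.86 ± 0.52 (0.732), on 57 reads in WT_PBS and 32 in Het_PBS. Fasn was at -0.20 ± 0.13 (0.761) and Scd2 at 0.17 ± 0.13 (0.817). Of the regulators, Srebf2 was at 0.03 ± 0.15, Insig1 at -0.23 ± 0.25 and Srebf1 at 0.57 ± 0.53. On simulated counts of this comparison 65% of 2-fold and 28% of 1.5-fold changes were recovered, so that changes of the size seen here would mostly go uncalled.

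**Figure D1:**
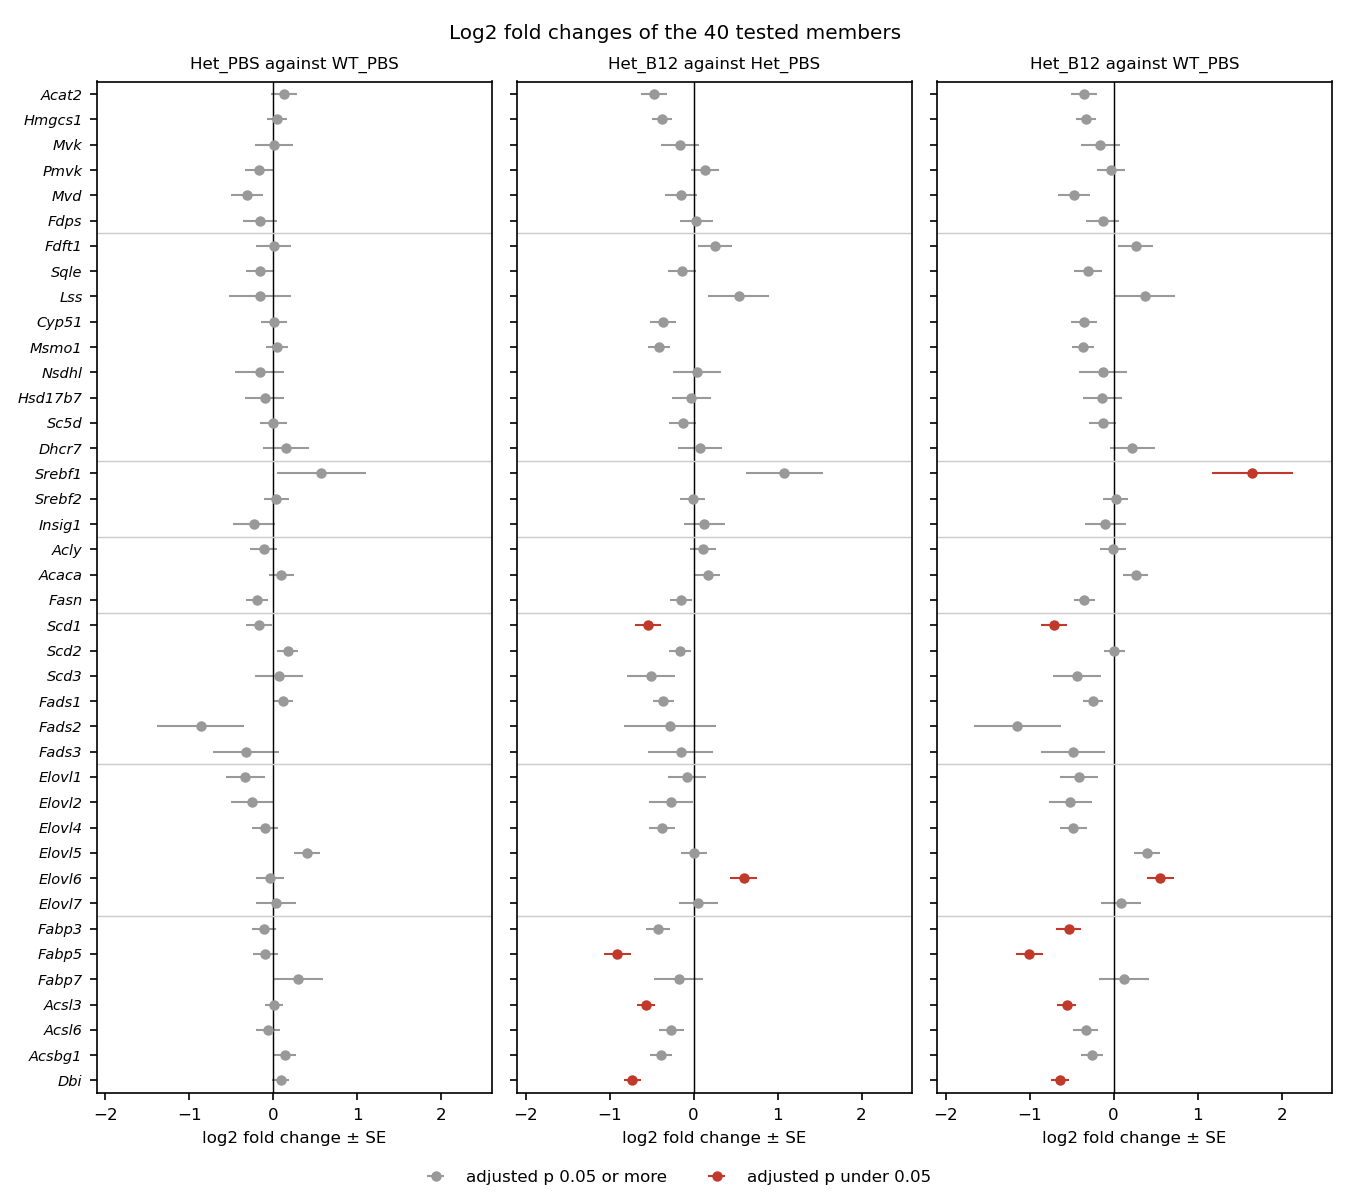
Log2 fold change with its SE (x axis) for the 40 tested genes (y axis, grouped from mevalonate enzymes at the top to fatty acid binding and activation at the bottom) in the 3 comparisons; red marks an adjusted p under 0.05. No gene is red for genotype, 5 are red for Het_B12 against Het_PBS and 7 for Het_B12 against WT_PBS, and no sterol enzyme is among them.

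Vitamin B12 was examined by comparing Het_B12 with Het_PBS. Of the 40 genes, 4 fell (Dbi, Acsl3, Fabp5 and Scd1), 1 rose (Elovl6) and 35 did not pass. This is 12.5% of the genes, beside 7.26% called among all genes tested (3.79% lower and 3.47% higher). The 5 genes lie in the fatty acid branch, 3 of them among the 7 genes of binding and activation. The median log2 fold change was -0.153 over the 40 genes, -0.128 over the 15 sterol genes and -0.265 over the 22 genes of the fatty acid branch, beside 0.012 for all genes tested. Whether the branches differ from each other was not tested.

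Dbi, whose protein carries long-chain acyl-CoA esters in the cytosol and is also the source of peptides that act on GABA-A receptors, had the smallest p-value (chromosome 1, 120113280 to 120121078, minus strand). The Het_PBS libraries, in the order of replicates 1 to 5 as in all such sentences, held 877, 852, 980, 888 and 966 CPM. The Het_B12 libraries held 547, 576, 564, 528 and 541 CPM, and WT_PBS held 852, 792, 688, 915 and 1038. Every Het_B12 library lay below every saline library, and the spread within Het_B12 was small. Dbi fell 1.66-fold against Het_PBS (log2 fold change -0.73 ± 0.10 SE, edgeR adjusted p = 2.14e-05).

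Acsl3 encodes a long-chain acyl-CoA synthetase, the enzyme class that activates fatty acids by joining them to coenzyme A (chromosome 1, 78657825 to 78707743, plus strand). It held 415, 406, 494, 441 and 492 CPM in Het_PBS and 245, 324, 311, 352 and 283 in Het_B12. WT_PBS libraries held 494, 440, 372, 481 and 445 CPM. The Het_B12 libraries again lay below all 10 saline libraries, Het_B12 1 being the lowest. Acsl3 fell 1.48-fold against Het_PBS (-0.57 ± 0.11, edgeR adjusted p = 0.000811). Utp14b overlaps it on the same strand, with 1015 reads against 13816 for Acsl3.

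Fabp5, a fatty acid binding protein that moves fatty acids through the cytosol, had the largest fold among the 5 genes that passed (chromosome 3, 10012548 to 10016607, plus strand). Its level was 130, 75.3, 123, 116 and 102 CPM in Het_PBS and 46.8, 56.3, 55.7, 76.7 and 55.1 in Het_B12. In WT_PBS it was 121, 142, 73.6, 111 and 134 CPM. The groups overlapped at their edges, where Het_B12 4 lay above Het_PBS 2 and WT_PBS 3. Fabp5 fell 1.88-fold (-0.91 ± 0.16, edgeR adjusted p = 0.000262). Transcripts annotated under 4 other names share 91.1% to 98.7% of 155 to 159 bases with its 3′ end, so that its count is uncertain where such reads were split or lost.

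Scd1, a desaturase that makes oleate from stearate (chromosome 19, 44394455 to 44407879, minus strand), held 132, 94.4, 111, 87.1 and 98.7 CPM in Het_PBS. It held 66.8, 80.3, 72.7, 76.3 and 63.5 CPM in Het_B12 and 116, 145, 61.9, 131 and 133 in WT_PBS. All Het_B12 libraries lay below the Het_PBS range, while WT_PBS 3 was the lowest of the 15. Scd1 fell 1.45-fold against Het_PBS (-0.54 ± 0.16, edgeR adjusted p = 0.0261). Of the 15 fits that left out 1 library, 4 did not call Scd1, those without Het_PBS 1 (0.097), Het_PBS 3 (0.0607), Het_B12 1 (0.0658) or Het_B12 5 (0.0706), and nor did the fit without Het_PBS 5 and Het_B12 1 together (0.0719).

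Elovl6, the elongase that lengthens palmitate to stearate, rose (chromosome 3, 129532355 to 129638495, plus strand). The Het_PBS libraries held 35.1, 35.4, 30.6, 36.3 and 28.1 CPM, and the Het_B12 libraries 57.3, 50.5, 53.6, 41.3 and 48.8. WT_PBS held 32.4, 45.1, 29.2, 34.6 and 30.1. No Het_B12 library overlapped Het_PBS, and Het_B12 4, the lowest of its group, lay below WT_PBS 2. Elovl6 rose 1.51-fold (0.60 ± 0.16, edgeR adjusted p = 0.0143). It did not pass with an offset for transcript length (0.0521) or without Het_PBS 5 and Het_B12 1 together (0.10).

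**Figure D2:**
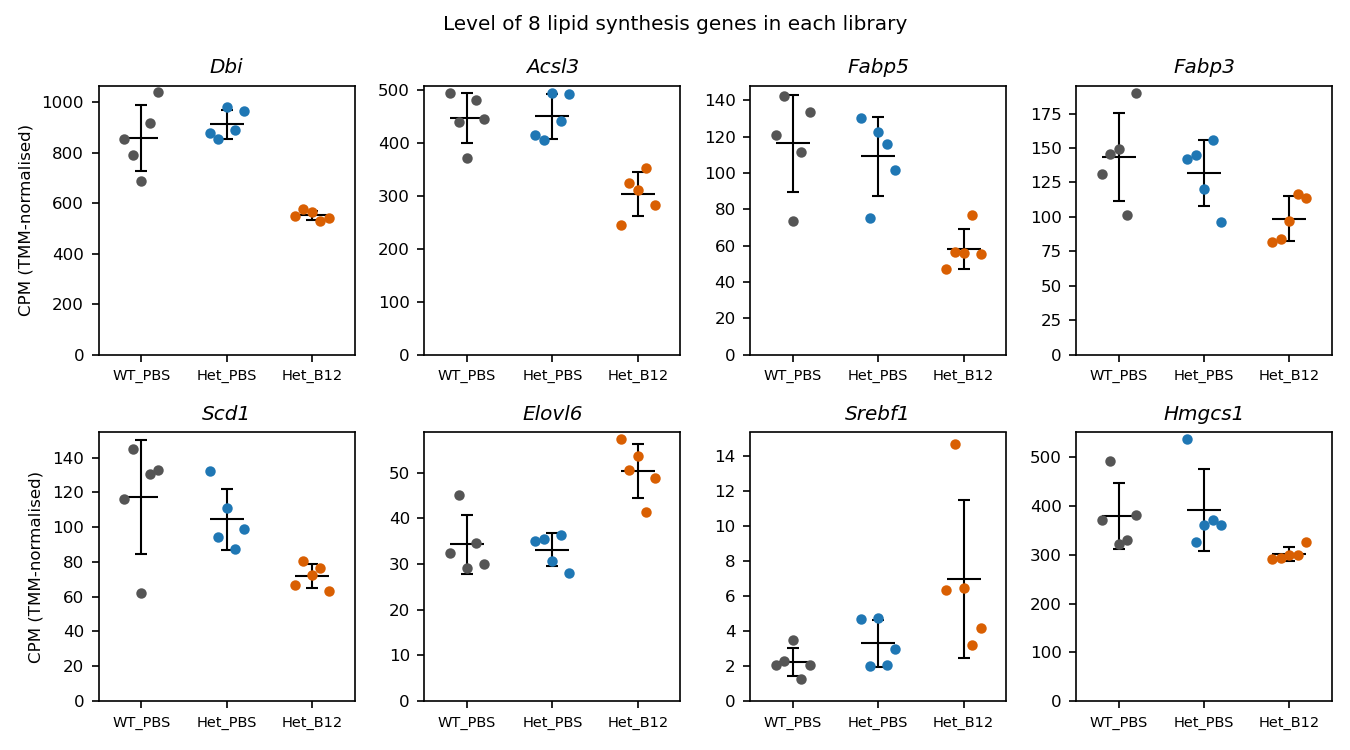
CPM of 8 genes in each library (dots, 5 per group) with the group mean and SD (black bars); the y axes start at 0 and differ between panels. For Dbi and Acsl3 every Het_B12 dot lies below the saline dots, for Elovl6 the Het_B12 dots lie at 41.3 to 57.3 CPM, and 1 Srebf1 dot at 14.7 CPM stands apart.

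The remaining genes of binding and activation lay lower in Het_B12 without passing. Acsbg1, an acyl-CoA synthetase gene of astrocytes, was at 137 ± 19.5 CPM in Het_PBS and 104 ± 12.8 in Het_B12 with no overlap (-0.39 ± 0.13, adjusted p = 0.0606). Fabp3, another fatty acid binding protein gene, was at 132 ± 23.7 and 98.7 ± 16.2 CPM (-0.42 ± 0.14, 0.0672), Acsl6 at -0.27 ± 0.15 (0.292) and Fabp7, the fatty acid binding protein of radial glia and astrocytes, at -0.17 ± 0.29 (0.791). Of desaturation, Fads1, which acts late in polyunsaturated fatty acid synthesis, was at 134 ± 23.8 and 104 ± 9.89 CPM (-0.36 ± 0.12, 0.0649), Scd3 at -0.50 ± 0.29 and Scd2 at -0.16 ± 0.13. Scd2 is the desaturase gene with the highest level in these brains, and its 5 Het_B12 values of 355 to 445 CPM lay within the Het_PBS range of 354 to 542. In edgeR, Acsbg1, Fabp3 and Fads1 passed with the 2 groups alone (0.0258, 0.0279 and 0.0443) and without WT_PBS 3 (0.0322, 0.0495 and 0.0458). Acsbg1 (0.0409) and Fads1 (0.0371) passed by DESeq2's own test. By limma-voom none of them passed, and each failed in most of the 15 edgeR fits without 1 library.

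Synthesis and the other elongases did not pass. Acly, which makes cytosolic acetyl-CoA from citrate, was at 0.11 ± 0.16, Acaca, the carboxylase of the committed step, at 0.17 ± 0.15, and Fasn at -0.15 ± 0.13 (adjusted p from 0.543 to 0.734). Fasn held 180, 151, 172, 128 and 126 CPM in Het_PBS and 135, 131, 151, 148 and 118 in Het_B12, ranges that overlapped. Elovl4, the elongase of very long chains, was at -0.37 ± 0.16 (0.148), Elovl2 at -0.27 ± 0.26 (0.606) and Elovl5 at 0.00 ± 0.15 (0.993).

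In the sterol branch 0 of 15 genes passed by edgeR, and 4 had an unadjusted p under 0.05, all of them lower in Het_B12. Among all 11718 genes tested, 2540 had an unadjusted p under 0.05 in this comparison. Msmo1 was at 118 ± 22.9 CPM in Het_PBS and 89.3 ± 13.2 in Het_B12 (-0.41 ± 0.13, adjusted p = 0.0508). Hmgcs1 was at 391 ± 83.9 and 302 ± 14.2 CPM (-0.37 ± 0.12, 0.0518), and Acat2, the thiolase that starts the pathway, at 54.7 ± 10.1 and 39.5 ± 6.92 (-0.47 ± 0.16, 0.0541). Cyp51, the lanosterol demethylase, was at -0.36 ± 0.15 (0.154). Msmo1, Hmgcs1 and Acat2 passed by DESeq2's own test (0.0332, 0.0373 and 0.0352) and in edgeR without WT_PBS 3 (0.0367, 0.0315 and 0.0386). All of them also passed in edgeR with DESeq2 size factors (0.0464, 0.0468 and 0.0497), with the 2 groups alone (0.0353, 0.0199 and 0.0436), without Het_PBS 5 (0.021, 0.0481 and 0.0306) and without WT_PBS 3 and Het_PBS 5 together (0.0118, 0.026 and 0.0183). By limma-voom 0 sterol genes passed. Msmo1, Hmgcs1 and Acat2 also did not pass with upper quartile scaling, with a mean count of at least 50 or with the replicate block. With the offset for transcript length Hmgcs1 passed (0.036) and Msmo1 and Acat2 did not. Each of them failed in most of the 15 edgeR fits without 1 library.

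Hmgcs1 held 538, 326, 360, 370 and 361 CPM in Het_PBS and 291, 294, 299, 299 and 326 in Het_B12. Het_PBS 1 lay far above the other libraries of its group for Hmgcs1 and for Cyp51. Without Het_PBS 1 the sterol genes still had 0 calls. The values of the other 11 sterol genes ran from -0.16 (Mvk, mevalonate kinase) to 0.54 (Lss). Sqle, squalene epoxidase, a controlling step after squalene, held 44.0, 43.4, 32.4, 34.3 and 35.9 CPM in Het_PBS and 39.1, 40.8, 26.5, 27.8 and 38.7 in Het_B12 (-0.14 ± 0.17, 0.692). Counted against the median of the 15 libraries, each Het_B12 library had 3 to 6 of the 15 sterol genes above it, Het_PBS libraries 4 to 12 and WT_PBS libraries 7 to 10.

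Fdft1, squalene synthase (0.26 ± 0.20), and Cyp51 overlap genes with more reads on the opposite strand, Ctsb with 7795 reads against 993 and Akap9 with 10010 against 2734. Without a stated strand setting their counts are uncertain. Akap9 itself was higher in Het_B12 than in Het_PBS (0.35 ± 0.11, edgeR adjusted p = 0.0448), opposite in sign to Cyp51.

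**Figure D3:**
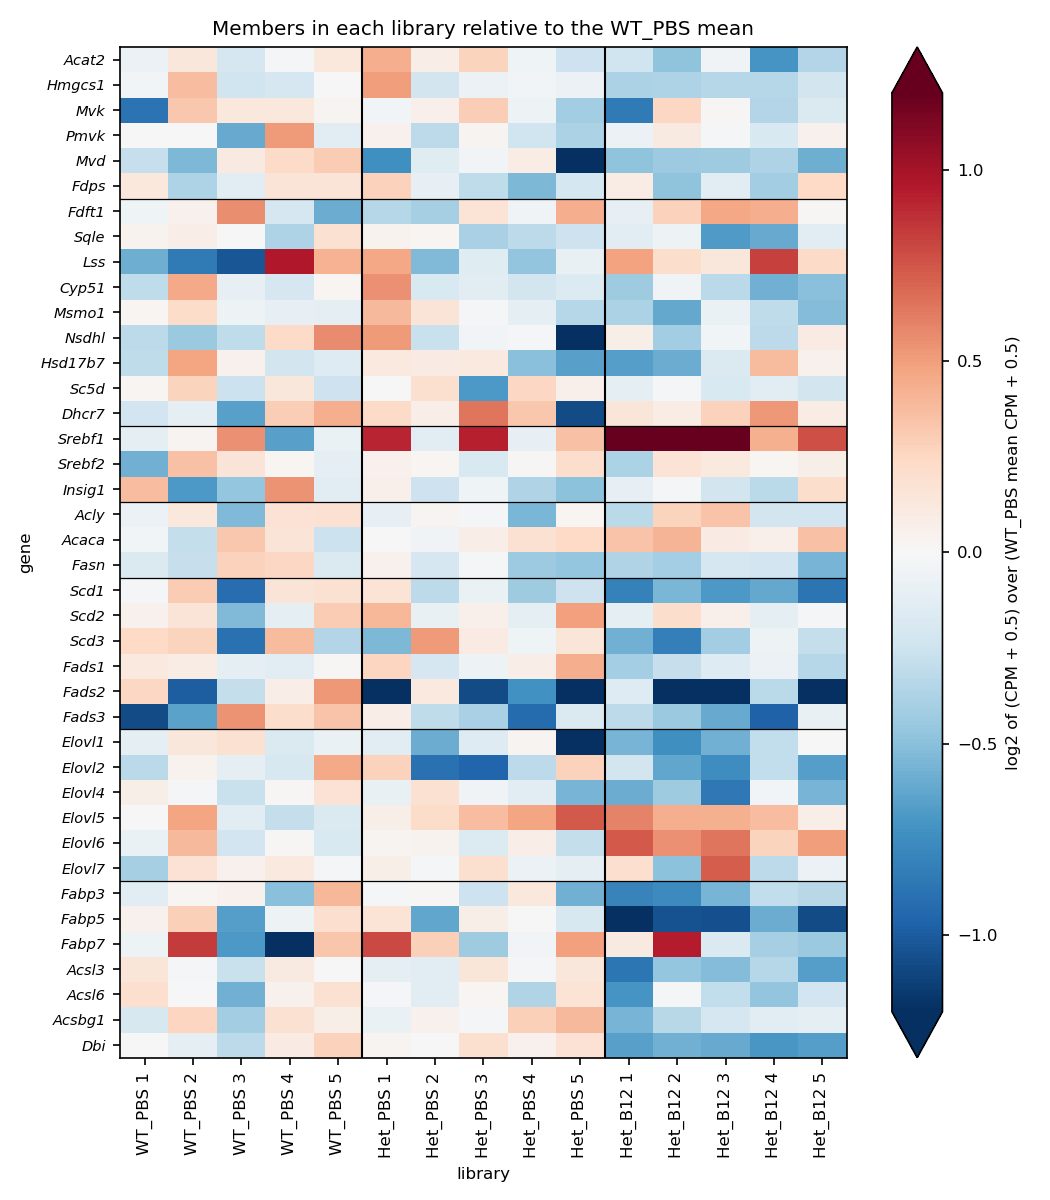
Log2 of (CPM + 0.5) over the WT_PBS mean (CPM + 0.5) for the 40 tested genes (rows, grouped as in the plot of fold changes) in each library (columns); colours saturate at 1.2 in either direction. Dbi, Acsl3 and Fabp5 are blue in all 5 Het_B12 columns, Elovl6 is red in them, and the sterol rows above are mixed.

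Of the regulators none passed against Het_PBS. Srebf2 held 69.7, 68.1, 59.1, 67.7 and 77.7 CPM in Het_PBS and 51.4, 75.2, 73.0, 68.3 and 70.5 in Het_B12 (-0.01 ± 0.15, adjusted p = 0.982). Insig1, itself a target of SREBP, was at 14.7 ± 2.36 and 16.1 ± 2.44 CPM (0.13 ± 0.25, 0.82). Srebf1 was close to the floor of detection, with 10, 5, 11, 5 and 5 reads in Het_PBS and 14, 41, 19, 8 and 12 in Het_B12 (1.08 ± 0.46, 0.15).

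Treated heterozygotes were also set against wild types given saline. This comparison shares the 5 Het_B12 libraries with the one before and is no independent repeat of it. Of the 40 genes, 5 were lower (Dbi, Acsl3, Fabp5, Fabp3 and Scd1) and 2 higher (Elovl6 and Srebf1), which is 17.5% beside 7.33% of all genes tested (4.11% lower and 3.22% higher). The median log2 fold change was -0.251, beside 0.0073 for all genes tested. Dbi was at -0.64 ± 0.10 (edgeR adjusted p = 9.02e-05), Acsl3 at -0.56 ± 0.11 (0.00103) and Fabp5 at -1.003 ± 0.16 (7.49e-05). Scd1 was at -0.71 ± 0.15 (0.00311), and Elovl6 was at 0.56 ± 0.16 (0.0248).

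Fabp3 (chromosome 4, 130308595 to 130315463, plus strand) held 131, 146, 149, 101.3 and 190 CPM in WT_PBS and 81.8, 84.2, 97.1, 116 and 114 in Het_B12. The ranges overlapped, WT_PBS 4 lying within those of Het_B12. It was 1.45-fold lower than in WT_PBS (-0.54 ± 0.14, edgeR adjusted p = 0.0182). Zcchc17, on the opposite strand, had 5626 reads against 4329 for Fabp3 and was at -0.32 ± 0.12 against WT_PBS (0.0893). Against Het_PBS it was lower in Het_B12 (-0.37 ± 0.12, edgeR adjusted p = 0.0453), in the same direction as Fabp3, so the count of Fabp3 is uncertain without a strand setting. A transcript annotated as Fabp3-ps1 also shares 98.8% of 162 bases with the 3′ end of Fabp3, which adds to that uncertainty. The call was lost with an offset for transcript length (0.155) and on leaving out WT_PBS 5 (0.11), Het_B12 1 (0.0627) or Het_B12 2 (0.0614).

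Srebf1 (chromosome 11, 60199089 to 60222581, minus strand) had 5, 4, 6, 3 and 5 reads in WT_PBS, or 2.05, 2.31, 3.51, 1.25 and 2.09 CPM. The Het_B12 libraries held 6.36, 14.7, 6.45, 3.18 and 4.19 CPM, of which Het_B12 4 lay within the range of WT_PBS. Srebf1 was 3.14-fold higher (1.65 ± 0.49, edgeR adjusted p = 0.0309). Without Het_B12 2 the log2 fold change was 1.18 and the adjusted p 0.191. Calls were also lost without any one of WT_PBS 1, WT_PBS 2, WT_PBS 4, WT_PBS 5, Het_B12 1 and Het_B12 3, and by limma-voom (0.0827). Rai1, on the opposite strand, had 674 reads against 153 for Srebf1, which makes its count uncertain, and was at 0.06 ± 0.22.

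The Elovl6 call against WT_PBS was lost without WT_PBS 1 (0.0679), WT_PBS 5 (0.0844), Het_B12 1 (0.0733) or Het_B12 3 (0.0599), with the offset for transcript length (0.0525), and without Het_PBS 5 and Het_B12 1 together (0.0623). Sterol genes again had 0 of 15 calls, with 12 of 15 below 0, 5 at an unadjusted p under 0.05 and Msmo1 (-0.37 ± 0.13, 0.0861) having the smallest. Of all 11718 genes tested, 49.2% were below 0 and 2526 had an unadjusted p under 0.05. Elovl4 was at -0.48 ± 0.16 (0.054), Fasn at -0.35 ± 0.13 (0.0919), Sqle at -0.30 ± 0.17 (0.30), Scd2 at 0.01 ± 0.13 and Srebf2 at 0.02 ± 0.15. Elovl5 was at 0.40 ± 0.15 (0.109). Fads2 had the lowest value of the 40 genes, -1.15 ± 0.52 (0.188), on 57 reads in WT_PBS and 30 in Het_B12. Without WT_PBS 3, which lay near the Het_B12 libraries on the first principal component, Hmgcs1 (0.0382), Elovl4 (0.0243) and Acsl6 (0.0309) also passed, and the calls rose from 7 to 10. With all libraries Elovl4 passed by DESeq2's own test (0.0377), by limma-voom (0.0386) and in edgeR with the offset for transcript length (0.0472). Fasn passed in edgeR with that offset (0.027).

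Markers of cell types moved in the same libraries. All 15 astrocyte markers were tested, of which 9 fell and 0 rose in Het_B12 against Het_PBS, with a median log2 fold change of -0.454. Their summed level was 4825 to 5696 CPM in Het_B12, 7183 to 8314 in Het_PBS and 5895 to 8247 in WT_PBS, where WT_PBS 3 was the lowest, and none of them was at 0. The 7 genes of fatty acid binding and activation summed to 1081 to 1265 CPM in Het_B12, 1711 to 1946 in Het_PBS and 1446 to 2063 in WT_PBS, WT_PBS 3 again being the lowest. Sterol genes summed to 765 to 815, 817 to 1196 and 854 to 1112 CPM. Hmgcs1 made the largest part of these sums (302 CPM in Het_B12, 391 in Het_PBS and 379 in WT_PBS). Against Het_PBS, 6 of the 15 sterol genes lay above 0 and 9 below. The part of astrocyte content in the falls of Dbi, Acsl3, Fabp5 and Scd1 was not tested. In bulk tissue fewer cells of a type and less RNA per cell cannot be told apart.

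**Figure D4:**
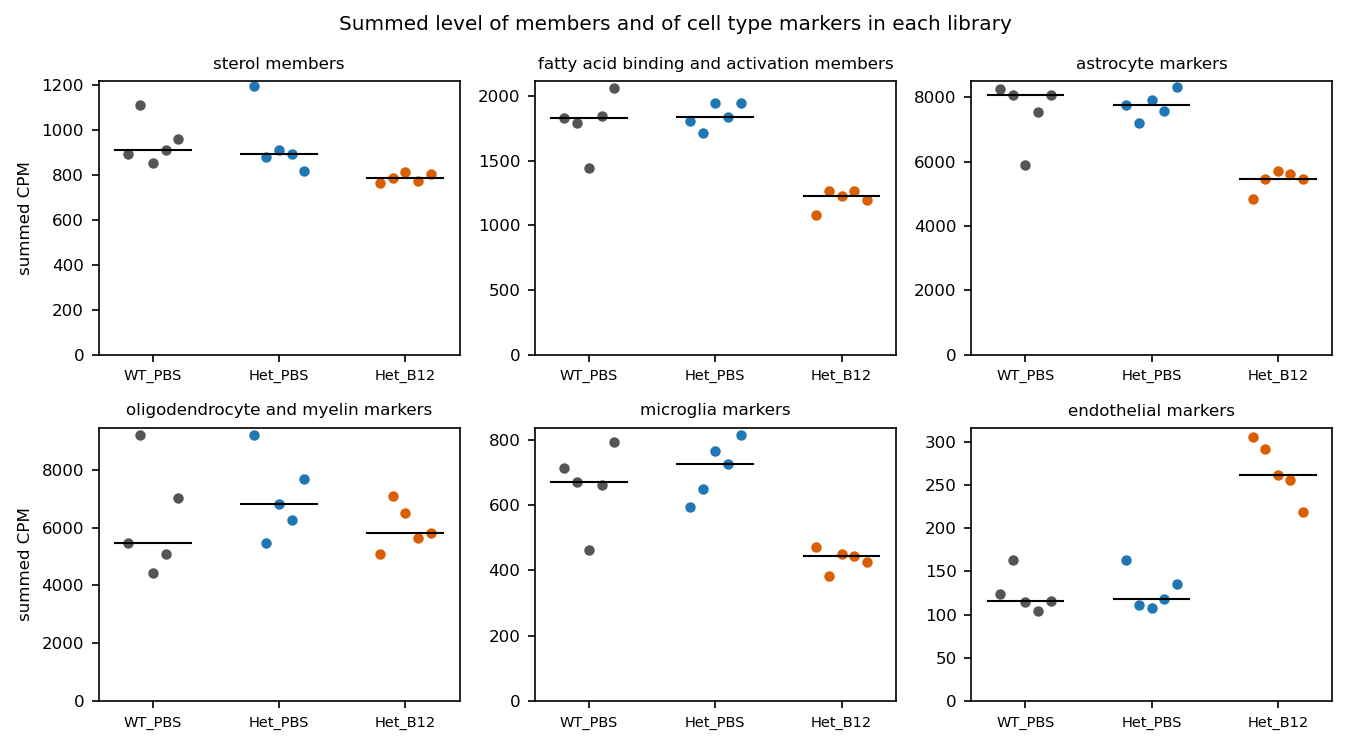
Summed CPM of the 15 tested sterol genes, the 7 genes of fatty acid binding and activation and 4 lists of cell type markers in each library (dots) with group medians (lines); y axes start at 0 and differ. Hmgcs1 makes the largest part of the sterol sum. The Het_B12 dots lie below all saline dots for binding and activation, for astrocyte markers and, narrowly (815 CPM against 817), for sterol genes. They reach the level of WT_PBS 3 (462 CPM) for the microglia markers and lie above all saline dots for the endothelial markers.

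Of 11 microglia markers 5 fell and 0 rose (382 to 471 CPM in Het_B12, 594 to 814 in Het_PBS). Of 16 oligodendrocyte and myelin markers 3 fell (5088 to 7096 against 5468 to 9205 CPM), and of 7 precursor markers 0 changed. Of 12 endothelial markers 10 were tested and 6 rose (219 to 306 against 107 to 164 CPM, summed over the 12). Of 13 neuron markers 1 rose, of 9 meningeal and choroid plexus markers 4 fell, and all 5 erythroid genes fell. Against WT_PBS 7 astrocyte, 6 microglia, 2 oligodendrocyte, 4 meningeal and 0 erythroid genes were lower, and 6 endothelial and 1 neuron marker were higher. The part of these cell types in the results above was not tested.

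Calls with the vitamin also followed transcript length. When genes were ranked by transcript length, in the fifth that held the shortest (up to 2092 bases) 9.30% were lower and 0.64% higher in Het_B12 than in Het_PBS, and in the fifth that held the longest (from 5620 bases) 1.07% and 7.94%. Dbi, with a longest transcript of 660 bases, lies in the first of these, and Elovl6, with 5951, in the other. Fabp5, Acsl3 and Scd1, with longest transcripts of 3238, 3950 and 4832 bases, lie between. The longest Fabp5 transcript covers most of its gene (10012548 to 10016607). Whether its reads come from a shorter transcript was not tested, so its place and its offset are uncertain. With an offset for transcript length Dbi, Fabp5, Acsl3 and Scd1 still passed against Het_PBS. Dbi was then at -0.38 ± 0.10 (edgeR adjusted p = 0.0125), beside -0.73 without the offset, and at -0.41 ± 0.10 against WT_PBS (0.00548), beside -0.64. Fabp5 was at -0.93, Acsl3 at -0.61 and Scd1 at -0.60 against Het_PBS with the offset.

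Other genes of the same pathways were counted from lists of related genes, beside 0%, 7.26% and 7.33% called among all genes tested for genotype, against Het_PBS and against WT_PBS. Of 9 other tested enzymes of cholesterol and isoprenoid synthesis 0 changed in any comparison. Of 17 genes of SREBP processing and sterol uptake 0 changed against Het_PBS. Against WT_PBS, Scap, the escort of SREBP, was higher (34.6 ± 3.90 and 52.4 ± 5.03 CPM, 0.60 ± 0.15, edgeR adjusted p = 0.00948). Npc2, a lysosomal cholesterol carrier, was lower (-0.45 ± 0.12, 0.0199).

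Of 18 genes of sterol export and turnover, 2 fell in Het_B12 against Het_PBS. Clu, a lipoprotein component made by astrocytes, was at -0.51 ± 0.10 (edgeR adjusted p = 0.00100), and Nceh1, a cholesteryl ester hydrolase, at -0.40 ± 0.11 (0.0208). Against WT_PBS Clu was lower (-0.44 ± 0.10, 0.00454) and the sterol exporter gene Abcg1 higher (0.92 ± 0.26, 0.0239). Of 16 other genes of fatty acid synthesis and elongation 0 changed against Het_PBS, and Hacd1, a dehydratase of the elongation cycle, was lower against WT_PBS (-1.14 ± 0.34, 0.0325). Of 17 other genes of fatty acid activation, uptake and storage 0 changed in any comparison.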

How the data were processed

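Raw counts of reads per gene in 15 QuantSeq 3′ libraries were deposited by the authors as 1 table, per the labels' protocols; STAR, HTSeq, edgeR and mm10 are named in the submitters' processing notes, while their versions, the annotation and the strand setting were not stated there. All 15 columns were mapped to samples by their labels. Genes were kept by filterByExpr (11718) and scaled by TMM, and a quasi-likelihood model with 1 mean per group (12 residual degrees of freedom, biological coefficient of variation 0.181) was fitted to all libraries in edgeR 4.0.16 (R 4.3.3). A gene was called at an adjusted p under 0.05. Alternatives used DESeq2 1.42.0, limma 3.58.1, other scalings and filters, the 2 groups alone, a replicate block, a length offset, thinning and left-out libraries. On simulated counts 60% of 2-fold and 26% of 1.5-fold changes were recovered when Het_B12 was set against Het_PBS, 71% and 35% when it was set against WT_PBS, and 5.49% to 6.19% of calls were false. Coordinates and transcript lengths come from GENCODE M21 (GRCm38), matched for 99.62% of identifiers, and sequences from RefSeq. The pathway genes, lists and tests were chosen with earlier results of these data known. Genes that passed in any comparison are given by library. Of the others, values are given for the 2 of each step with the smallest p in any comparison and for Srebf1, Srebf2, Insig1, Fasn, Sqle and Scd2; further genes were named after their values were seen, as the ends of a range or beside an overlap. From the other lists, passing genes are named, at most 4 per list by smallest p. Floors cover counting error only. Within groups the closest pair of libraries, Het_B12 4 and 5, had a chi-square over degrees of freedom of 3.03. It was 10.3 for Het_PBS 5 and Het_B12 1, which share a number in the labels. This pair also differs in treatment, so the value cannot tell whether a mouse was shared. All 15 libraries were kept as separate samples. Some items are not reported here.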

Additional observations from a re-analysis of the deposited data

Results flagged for a closer look

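In 7 of the 120 groups of 5 values (40 genes in 3 groups) 1 library stood apart from the other 4 by more than Dixon's 95% critical value, where chance gives about 1 in 20. Het_PBS 1 was high for Hmgcs1 (538 CPM against 326 to 370) and for Cyp51 (125 against 73.5 to 78.1), both sterol enzymes. Het_B12 5 was high for Hmgcs1 (326 against 291 to 299). Het_B12 2 was high for Srebf1 (14.7 against 3.18 to 6.45) and for Fabp7 (40.8 against 15.3 to 22.7). Het_B12 1 was low for Srebf2 (51.4 against 68.3 to 75.2), and Het_PBS 4 was low for Acly (45.4 against 62.2 to 68.1).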

How the results depend on the processing

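Against Het_PBS, Dbi, Acsl3 and Fabp5 passed in all 12 other settings and all 15 fits without 1 library, and the same held against WT_PBS. No result of the 40 genes that was called reversed its direction in any of these. The number of the 40 genes called against Het_PBS (5) was 8 with DESeq2 size factors, 8 without a filter on low counts, 10 by DESeq2, 11 with the 2 groups alone and 10 without WT_PBS 3 and Het_PBS 5 together. It ran from 4 to 11 without 1 library, reaching 11 without WT_PBS 3 and 9 without Het_PBS 5; the cause was not tested. Against WT_PBS (7) it was 11 without WT_PBS 3 and Het_PBS 5 together and ran from 4 (without WT_PBS 5 or Het_B12 1) to 10. For genotype it was 0 in every fit. Over all genes, genotype gave 40 calls without a filter, 1 thinned to the smallest total, 1 without WT_PBS 3 and Het_PBS 5 together, 2 without Het_PBS 5 and Het_B12 1 together (a setting chosen after seeing the data), and 0 to 14 without 1 library (14 without WT_PBS 2, 5 without Het_PBS 2, 2 without Het_PBS 4 or Het_PBS 5). Calls against Het_PBS (851) were 437 without Het_PBS 5 and Het_B12 1 together and 549 (without Het_B12 1) to 1050 without 1 library. Calls against WT_PBS (859) were 1390 without WT_PBS 3 and Het_PBS 5 together and 449 (without WT_PBS 5) to 1268 without 1 library, with 477 without WT_PBS 1, 515 without Het_B12 1 and 513 without Het_B12 2. The replicate numbers did not pair the libraries: deviations of same-numbered libraries correlated from -0.0933 to 0.106, and 1 or 2 of 5 libraries correlated best with their own number. With the replicate block 0, 830 and 800 genes were called for genotype, against Het_PBS and against WT_PBS, and 0, 6 and 7 of the 40, the call added against Het_PBS being Acsbg1 (adjusted p = 0.0451). DESeq2 gave no adjusted p for Srebf1 against WT_PBS. Depth limits Srebf1, Fads2, Idi1 and Acacb most, whose reads number 153, 119, 33 and 84 over all libraries.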
